A study of Mus musculus with 2 samples.

Results

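The C-type lectin receptors of myeloid cells were taken as the 10 genes Clec4n, Clec4e, Clec7a, Clec4a2, Clec4a4, Clec12a, Clec4a1, Clec4a3, Cd209a and Clec10a, found by symbol among the 26124 genes of the deposited count matrices. All 10 had UMIs, the molecules tagged at reverse transcription, in the kept cells of both libraries. Each library came from the spleen of 1 mouse, as a cell suspension enriched with beads against F4/80, a macrophage surface protein, and measured by droplet scRNA-seq. The SCD mouse was a Berkeley sickle cell disease mouse, with Hba−/− and Hbb−/− and homozygous for the human transgene Tg(HBA-HBBs)41Paz. The control mouse, named wild-type in the labels, also had Hba−/−, was hemizygous for that transgene and Hbb+/−, and is non-sickling by its label. Both mice were 12 to 16 weeks old and untreated. The Berkeley line has a mixed genetic background, so that differences between 2 mice of this line can come from genes other than globins.

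C-type lectin receptors of phagocytes bind sugars and lipids of microbes and of dying cells. The activating receptors signal through immunoreceptor tyrosine-based activation motifs, either on the adaptor FcRγ (gene Fcer1g) or in their own tail, and recruit the kinase Syk, which acts through Card9, Bcl10 and Malt1 on NF-κB and cytokine genes. The inhibitory receptors carry the opposite motif and recruit the phosphatases Ptpn6 and Ptpn11. In the spleen, these receptors are used as surface markers of monocyte and dendritic cell (DC) subsets, and the Dcir and Dectin receptors lie in gene clusters on mouse chromosome 6.

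Each condition had 1 mouse, so that the conditions could not be tested against each other and no p-value is given. Intervals in parentheses are 95% exact Poisson intervals for levels, exact intervals for ratios and exact binomial intervals for shares, and all cover counting error only. The libraries held 145953464 and 73986356 UMIs in 24144 and 15442 barcodes, of which 19418 and 12279 were kept. Of the barcodes, 107 occurred in both libraries, 65 of them among the kept cells. The β-globin genes went against the labels. Erythroid-like cells of the libraries labelled wild-type and SCD had 154 and 47206 CPM of Hbb-bs and 289 and 16067 CPM of Hbb-bt, in UMIs per 1000000 UMIs (CPM), although the label of the latter gives Hbb−/−. Hba-a1, deleted by the labels of both, was at 27725 and 30916 CPM. Each sample is therefore named here as a library with its label, and paired values give wild-type before SCD. A direction between the libraries holds for these labels. Whether the libraries were exchanged was not tested, and every ratio between them would change sign if they were.

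Of the members, 8 lie on chromosome 6 of GRCm38, by the GENCODE M21 annotation. Clec4a1 (ENSMUSG00000049037, 122921848 to 122934619, plus strand) and Clec4a3 (ENSMUSG00000043832, 122952515 to 122969875, plus strand) are neighbours, 17.9 kb apart. They are followed by Clec4a4 (ENSMUSG00000059639, 122990367 to 123024105, plus strand), Clec4a2 (ENSMUSG00000030148, 123106428 to 123143999, plus strand), Clec4n (ENSMUSG00000023349, 123229843 to 123247021, plus strand) and Clec4e (ENSMUSG00000030142, 123281789 to 123289870, minus strand). Clec12a (ENSMUSG00000053063, 129342691 to 129365303, plus strand) and Clec7a (ENSMUSG00000079293, 129461591 to 129472779, minus strand) lie 6053 kb further on. Cd209a (ENSMUSG00000031494, 3743397 to 3748984, minus strand) is on chromosome 8 and Clec10a (ENSMUSG00000000318, 70156197 to 70170834, plus strand) on chromosome 11. Since reads come from the ends of transcripts, runs of 50 bases in the last 500 bases of each member's coding transcripts were looked up in the transcripts of all other genes. Of these runs, 15.6% of Clec10a also occurred in Mgl2, 8.96% of Clec4a2 in Clec4a4 or Clec4b1 and 1.47% of Clec4n in Gm44147, so that these counts are uncertain to that degree, while the other 7 members shared none.

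Promoter windows are shown for 4 members whose levels set the division described here apart, the neighbours Clec4a1 and Clec4a3, highest in the same monocytes, and Clec4e and Clec7a, which differed from each other between the monocyte classes. Each is the 250 bases before an annotated RefSeq start on GRCm38.p6, 5′ to 3′ on the gene's strand. Capitals mark GAGGAA or its reverse complement TTCCTC, a core of sites bound by the myeloid factor PU.1 and other ETS factors, which overlap in these letters.
Clec4a1, chr6:122921598-122921847, plus strand: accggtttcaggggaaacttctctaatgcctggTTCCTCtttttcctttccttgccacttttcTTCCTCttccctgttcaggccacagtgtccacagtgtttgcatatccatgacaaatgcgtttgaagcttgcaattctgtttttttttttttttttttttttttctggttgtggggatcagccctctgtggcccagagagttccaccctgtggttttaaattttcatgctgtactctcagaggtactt
Clec4a3, chr6:122952265-122952514, plus strand: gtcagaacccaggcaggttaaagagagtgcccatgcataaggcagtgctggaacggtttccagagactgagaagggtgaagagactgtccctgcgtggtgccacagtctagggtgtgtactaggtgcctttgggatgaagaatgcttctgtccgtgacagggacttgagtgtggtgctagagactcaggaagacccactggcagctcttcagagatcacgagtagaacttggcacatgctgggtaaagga
Clec4e, chr6:123289872-123290121, minus strand: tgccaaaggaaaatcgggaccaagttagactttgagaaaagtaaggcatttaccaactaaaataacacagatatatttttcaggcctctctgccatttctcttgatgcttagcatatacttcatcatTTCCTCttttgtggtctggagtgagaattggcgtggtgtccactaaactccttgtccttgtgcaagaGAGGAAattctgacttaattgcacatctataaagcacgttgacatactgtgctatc
Clec7a, chr6:129472780-129473029, minus strand: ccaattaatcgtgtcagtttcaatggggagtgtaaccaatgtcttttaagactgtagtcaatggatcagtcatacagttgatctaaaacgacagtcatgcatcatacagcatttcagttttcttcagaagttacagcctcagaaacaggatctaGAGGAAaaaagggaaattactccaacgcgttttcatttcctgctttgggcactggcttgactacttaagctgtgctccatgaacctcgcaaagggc
The letters occurred 2 times in the windows of Clec4a1 and Clec4e, 1 time in that of Clec7a and not in that of Clec4a3 shown. Of all 32851 promoter windows of this length, 23.3% held them, and of the 9 windows listed for 7 of the members 6 did. A second start of Clec4a3 lies inside the gene, and the window before it shared 1 run of 17 bases, cctggttcctctttttc, with that of Clec4a1. The run lies at chr6:122921626-122921642 in Clec4a1 and chr6:122952589-122952605 in Clec4a3, and among the promoter windows of 27025 genes it was found, on the gene's strand, in those of Clec4a1 and Clec4a3. The run holds TTCCTC, left in lower case where the run is printed, so that this second window of Clec4a3 has the marked letters. RefSeq windows of Clec4n, Clec4a4 and Clec10a were not used here.

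The cells were clustered without the C-type lectin genes, and clusters were named from markers. Red pulp macrophage-like (RPM-like) cells numbered 4697 and 1643, and cells with macrophage and erythroid markers, called erythroblastic island-like (EBI-like), 6938 and 1012. These were 24.2% and 13.4% and 35.7% and 8.24% of the kept cells. Ly6c-high monocyte-like cells numbered 1049 and 887, Ly6c-low monocyte-like cells 434 and 1134, cDC2-like cells 758 and 2658 and mature DC-like cells 463 and 687. The macrophage classes were held by different clusters in the libraries. Of the RPM-like cells, clusters led by Marco and Cd5l and by Abcc5 and Ank2 held 3593 and 1061 cells from wild-type and 13 and 6 from SCD, and a cluster led by Rgs1 and Adamdec1 held 43 and 1624. Of the EBI-like cells of the library labelled SCD, 655 were in a cluster led by Hbb-bs and Hbb-bt that held 8 of the library labelled wild-type, whose EBI-like cells were spread over 6 clusters of 854 to 1406 cells. Differences between these clusters and between the libraries cannot be told apart. Levels are the CPM of UMIs summed over the cells of a class. The main B lymphocyte-like cluster, 429 and 1716 cells, should lack these receptors and is used as the level of free RNA. Other cells that should lack a receptor can lie above it. An unnamed cluster of 331 and 1127 cells led, apart from C-type lectins, by Lyz1 and Cd93 had markers of both monocyte classes and is given by those genes.

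**Figure D1:**
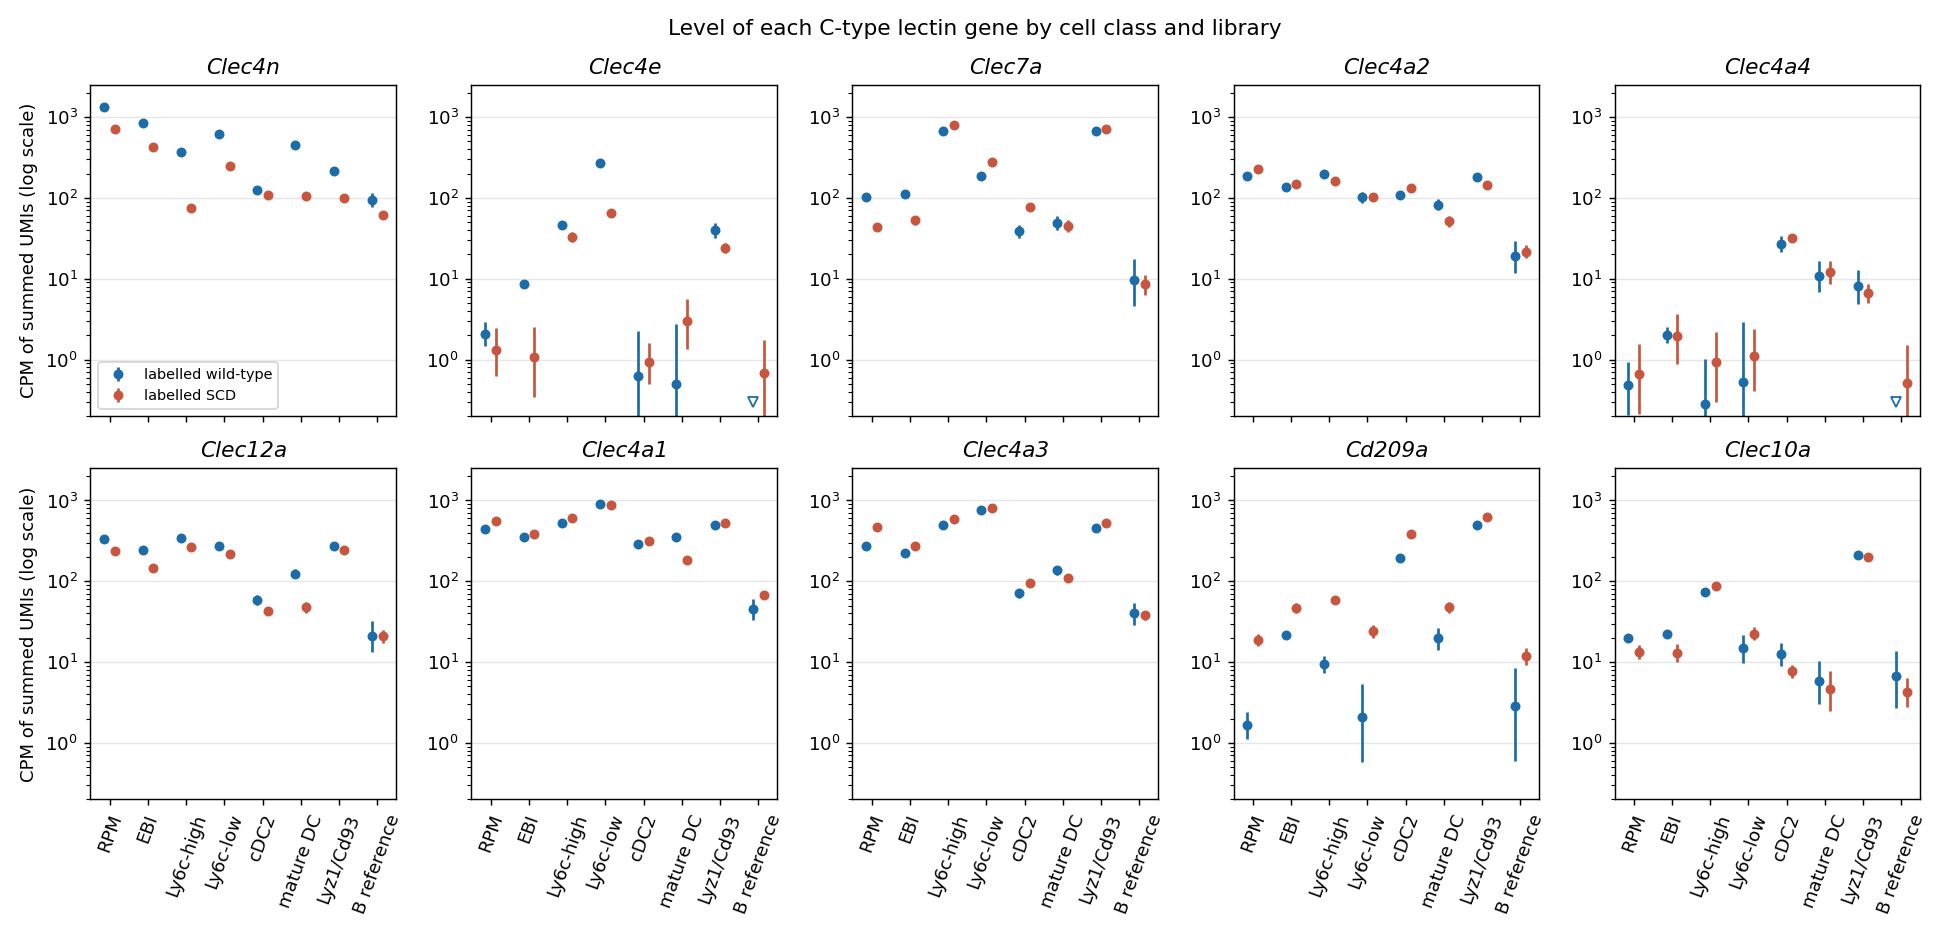
CPM of each member (log axis) in 6 cell classes, the Lyz1/Cd93 cluster and the main B lymphocyte-like cluster (B reference), with 95% Poisson intervals as bars and open triangles for a count of 0. Clec4n is highest in the macrophage classes, Clec4a1 and Clec4a3 in Ly6c-low monocyte-like cells, Clec7a in Ly6c-high monocyte-like cells and the Lyz1/Cd93 cluster, and Clec4a4 in cDC2-like cells.

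Clec4n encodes Dectin-2, an activating receptor for fungal mannans that signals through FcRγ. RPM-like cells had 1318 (1301 to 1336) CPM and 715 (696 to 734) CPM and EBI-like cells 844 (835 to 853) CPM and 429 (411 to 449) CPM. The level of RPM-like over EBI-like cells was 1.56-fold (1.54 to 1.59) for wild-type and 1.67-fold (1.58 to 1.75) for SCD. Monocytes and DCs had less. The level was 369 and 74.2 CPM in Ly6c-high and 611 and 249 CPM in Ly6c-low monocyte-like cells, 125 and 108 CPM in cDC2-like cells and 447 and 107 CPM in mature DC-like cells. The B reference was at 94.1 and 61.6 CPM, so that in the library labelled SCD the Ly6c-high monocyte-like, cDC2-like and mature DC-like cells lay within 2-fold of free RNA, as did the cDC2-like cells in the library labelled wild-type. The last level leaves out an unnamed cluster led by Ifitm1 and Ffar2, whose best marker match was cDC2, at 626 CPM in that library. Erythroid-like cells had 226 and 70.3 CPM and T lymphocyte-like cells 218 and 71.4 CPM. For wild-type both lay above the B reference, which may therefore understate free RNA of Clec4n there.

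The library labelled SCD had less Clec4n in each of the 6 classes. As a log2 ratio, SCD over wild-type, the difference was -0.88 (-0.93 to -0.84) in RPM-like, -0.98 (-1.04 to -0.91) in EBI-like, -2.31 (-2.47 to -2.16) in Ly6c-high and -1.29 (-1.41 to -1.18) in Ly6c-low monocyte-like cells. It was -2.07 (-2.26 to -1.88) in mature DC-like cells and -0.21 (-0.37 to -0.05) in cDC2-like cells. Over the alternatives run the ratio lay from -1.14 to -0.87 in RPM-like, from -2.29 to -0.57 in EBI-like and from -4.45 to -1.42 in Ly6c-high monocyte-like cells. The cDC2 value turned to 0.58 when the B reference was subtracted, and lay between -2.60 and -1.83 under the 6 other clusterings. The B reference itself had a log2 ratio of -0.61 (-0.94 to -0.27). In 5 of the 6 classes macrophage markers were lower in the library labelled SCD as well. The 12 red pulp macrophage markers summed to 11160.1 and 3281 CPM in Ly6c-high monocyte-like cells, where 12 and 2 of the 12 were at 2 times the B reference or more, and to 15469 and 5765 CPM in mature DC-like cells, where 12 and 3 of the 12 were. In RPM-like cells they summed to 42422 and 36327 CPM, and none was at 0 in these classes. In cDC2-like cells they lay the other way, at 4142 and 5213 CPM. Their part in the difference was not tested.

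**Figure D2:**
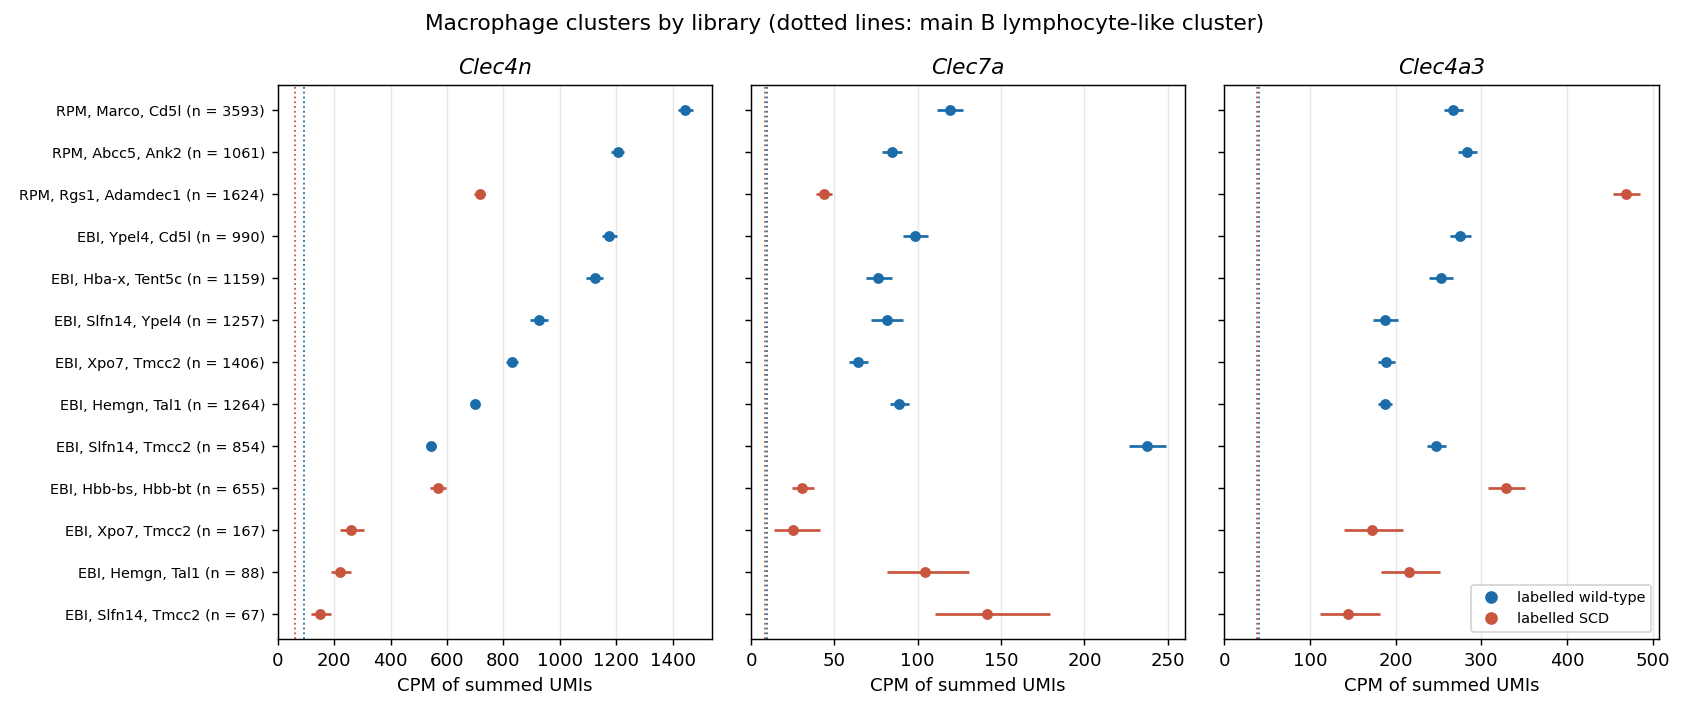
CPM of Clec4n, Clec7a and Clec4a3 in each macrophage cluster with at least 50 cells of a library, named by class and 2 leading genes, with the number of cells and 95% Poisson intervals. For Clec4n the wild-type points lie between 543 and 1445 CPM and the SCD points between 150.0 and 716 CPM, while for Clec4a3 the RPM-like cluster of the library labelled SCD is the highest.

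Within the macrophages Clec4n varied by cluster. It was at 1445 CPM in the Marco/Cd5l cluster, 1205 CPM in the Abcc5/Ank2 cluster and 716 CPM in the Rgs1/Adamdec1 cluster, the first pair in the library labelled wild-type and the last in the library labelled SCD. In the 3 EBI-like clusters with at least 50 cells of both libraries, the libraries could be compared within a cluster. There Clec4n was at 832 and 260.2 CPM in the cluster led by Xpo7 and Tmcc2, at 699 and 222 CPM in the one led by Hemgn and Tal1, and at 543 and 150.0 CPM in the one led by Slfn14 and Tmcc2. Cells marked as doublets made up 4.34% and 5.39% of the cluster led by Xpo7, 38.1% and 71.6% of the one led by Hemgn, with 88 SCD cells, and 56.3% and 56.7% of the last, with 67.

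Clec4e encodes Mincle, an FcRγ-coupled receptor for mycobacterial glycolipids. It was highest in Ly6c-low monocyte-like cells, at 269.7 (247 to 294) CPM and 65.002 (58.4 to 72.2) CPM, followed by Ly6c-high monocyte-like cells at 46.1 (41.2 to 51.4) CPM and 33.1 (28.4 to 38.3) CPM. The gap between these classes was 5.85-fold (5.08 to 6.75) and 1.96-fold (1.64 to 2.37). RPM-like cells had 2.10 and 1.32 CPM and cDC2-like cells 0.631 and 0.931 CPM, from 35 and 10 and from 2 and 13 UMIs. The B reference had 0 and 4 UMIs, and a count of 0 allows 3 UMIs, or 2.88 CPM there. In Ly6c-low monocyte-like cells the library labelled SCD had less, with a log2 ratio of -2.05 (-2.25 to -1.85) and a range of -2.84 to -1.89 over the alternatives run. In EBI-like cells the ratio was -3.01 (-4.65 to -1.78), from 360 and 5 UMIs, but -0.22 with cells marked as doublets left out.

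Clec7a encodes Dectin-1, a receptor for β-glucans with an activating motif in its own tail. Ly6c-high monocyte-like cells had 679.8 (661 to 699) CPM and 804 (780.5 to 829) CPM, and Ly6c-low monocyte-like cells 187 (168 to 208) CPM and 282 (268 to 296) CPM. The Lyz1/Cd93 cluster, at 682 and 716 CPM, lay as high as the Ly6c-high class in the library labelled wild-type. RPM-like cells had 101 and 43.6 CPM, EBI-like cells 111 and 53.2 CPM, cDC2-like cells 38.8 and 77.0 CPM and mature DC-like cells 48.7 and 45.0 CPM, all above the B reference of 9.60 and 8.54 CPM. Between the libraries Clec7a differed in opposite directions by class. The log2 ratio was -1.22 (-1.39 to -1.04) in RPM-like and -1.06 (-1.25 to -0.88) in EBI-like cells, and 0.59 (0.42 to 0.76) in Ly6c-low monocyte-like and 0.99 (0.72 to 1.27) in cDC2-like cells. The cDC2 value fell to 0.03 with doublets left out. In Ly6c-high monocyte-like cells the ratio was 0.24 (0.18 to 0.30).

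The inhibitory members were Clec4a2, Clec4a4 and Clec12a. Clec4a2 (Dcir) was spread over the classes. In the library labelled wild-type it ranged from 82.6 CPM in mature DC-like to 196 CPM in Ly6c-high monocyte-like cells, while with the SCD label it ranged from 51.6 CPM in mature DC-like to 229 CPM in RPM-like cells. The highest 2 classes did not differ beyond counting error in the library labelled wild-type, at 1.06-fold (0.996 to 1.13). The B reference was at 19.2 and 21.7 CPM. Clec12a, a receptor for uric acid crystals, was nearly level between the highest classes as well. It was at 345 and 262 CPM in Ly6c-high monocyte-like cells, 333 and 239 CPM in RPM-like cells and 274 and 219 CPM in Ly6c-low monocyte-like cells, and at 58.7 and 43.5 CPM in cDC2-like cells. The neutrophil-like cluster of the library labelled wild-type, 279 cells, exceeded all 6 classes for both genes, with 335 CPM of Clec4a2 and 467 CPM of Clec12a. The library labelled SCD had 14 such cells.

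Clec4a4 (Dcir2), a marker of a cDC2 subset of the spleen, was the member most limited to DCs by level. It was at 27.1 (21.7 to 33.5) CPM and 32.2 (29.3 to 35.3) CPM in cDC2-like and 10.8 (6.78 to 16.4) CPM and 12.2 (8.57 to 16.8) CPM in mature DC-like cells. The other 4 classes had between 0.284 and 2.02 CPM, from 1 to 84 UMIs a class and library. The B reference had 0 and 3 UMIs. The log2 ratio between the libraries in cDC2-like cells was 0.25 (-0.09 to 0.60), an interval that holds 0. Over the alternatives run it lay from 0.22 to 0.74, so that the value used is near the low end.

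Clec4a1 (Dcir4) and Clec4a3 (Dcir3), whose roles are less well known, had the same order of classes at the top. Ly6c-low monocyte-like cells had 895 (853 to 939) CPM and 879 (854 to 904) CPM of Clec4a1 and 764 (725 to 805) CPM and 812 (788 to 836) CPM of Clec4a3. Ly6c-high monocyte-like cells had 531 and 611 CPM and 496 and 597 CPM of the same genes, and RPM-like cells 442 and 553 CPM and 276 and 468 CPM. They parted in cDC2-like cells, where Clec4a1 was at 293 and 316 CPM and Clec4a3 at 71.3 and 94.5 CPM, against B references of 45.1 and 68.3 CPM and 40.3 and 37.9 CPM. In the monocyte classes both genes differed little between the libraries, with log2 ratios of 0.20 and 0.27 in Ly6c-high and -0.03 and 0.09 in Ly6c-low monocyte-like cells. In RPM-like cells Clec4a3 had a log2 ratio of 0.76 (0.70 to 0.82) and Clec4a1 of 0.32 (0.27 to 0.38), beside a median over all genes tested there of 0.20. In mature DC-like cells the ratio of Clec4a1 was -0.95 (-1.11 to -0.79).

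Cd209a, a mouse homologue of DC-SIGN, was highest among the 6 classes in cDC2-like cells, at 196 (181 to 212) CPM and 379.8 (369.7 to 390.2) CPM. The next class was EBI-like cells in the library labelled wild-type, 9.19-fold (8.28 to 10.2) lower, and Ly6c-high monocyte-like cells in the library labelled SCD, 6.55-fold (5.84 to 7.37) lower. The Lyz1/Cd93 cluster had still more, 492 (463 to 523) CPM and 620.2 (604 to 637) CPM. Clec10a, a receptor for galactose and N-acetylgalactosamine, was highest among the 6 classes in Ly6c-high monocyte-like cells, at 74.2 (68.0 to 80.9) CPM and 86.4 (78.8 to 94.7) CPM, and reached 212 (193 to 232) CPM and 200.1 (191 to 209.9) CPM in the Lyz1/Cd93 cluster. In cDC2-like cells Clec10a was at 12.6 and 7.74 CPM, near the B reference of 6.72 and 4.27 CPM. In the Lyz1/Cd93 cluster the 12 cDC2 markers summed to 1086 and 1019 CPM and the 10 Ly6c-high monocyte markers to 4046 and 2278 CPM, while the 10 Ly6c-low monocyte markers lay the other way, at 2351 and 3954 CPM. As doublets, 18.1% and 28.1% of its cells were marked, by a different rule in each library. It made up 1.70% and 9.18% of the kept cells.

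**Figure D3:**
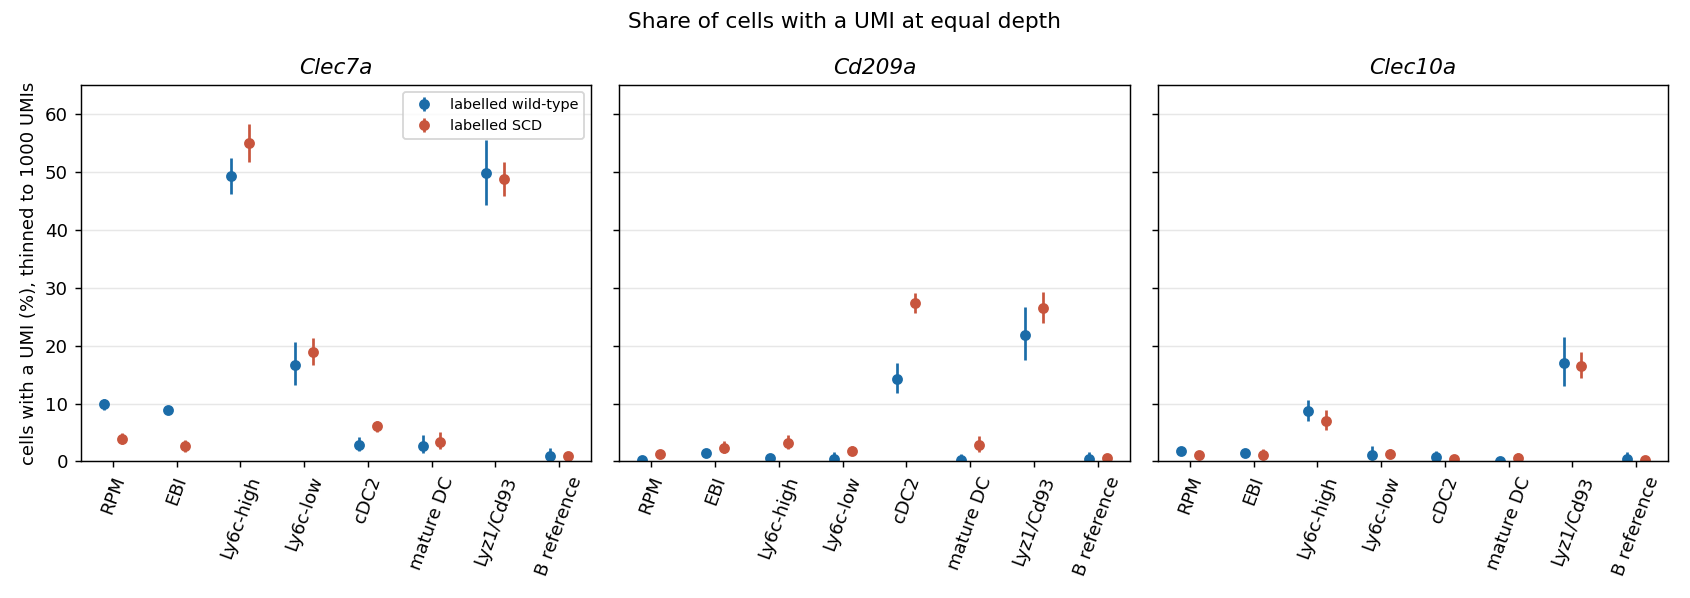
Share of cells with at least 1 UMI of Clec7a, Cd209a and Clec10a, after each cell was thinned to 1000 UMIs, with 95% exact binomial intervals. In the Lyz1/Cd93 cluster Clec7a was found in 49.8% and 48.8% of cells, Cd209a in 21.8% and 26.5% and Clec10a in 16.9% and 16.5%.

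Cd209a was higher in the library labelled SCD in each of the 6 classes. The log2 ratio was 0.95 (0.83 to 1.07) in cDC2-like cells, 3.49 (2.90 to 4.13) in RPM-like cells, 2.63 (2.24 to 3.03) in Ly6c-high and 3.51 (2.12 to 5.41) in Ly6c-low monocyte-like cells, the last from 4 and 130 UMIs. The B reference differed the same way, from 2.88 and 11.9 CPM, with a ratio of 2.05 (0.45 to 4.36). The levels in RPM-like cells, 1.68 and 18.9 CPM, and in Ly6c-low monocyte-like cells, 2.11 and 24.1 CPM, lay below that reference for wild-type, and for SCD at about 2 times it or less. With the reference subtracted, the ratio in cDC2-like cells was 0.93, and for RPM-like and Ly6c-low monocyte-like cells no ratio was left. The 12 cDC2 markers summed to 56.5 and 171 CPM in RPM-like cells and to 82.6 and 129 CPM in Ly6c-high monocyte-like cells, beside 3503 and 3523 CPM in cDC2-like cells, and their part in the difference was not tested. Over the alternatives the ratio lay from 1.94 to 5.08 in RPM-like, from 0.94 to 6.96 in Ly6c-low monocyte-like and from 0.48 to 1.43 in mature DC-like cells. In EBI-like cells the ratio of 1.12 (0.90 to 1.34) turned to -0.64 with each library clustered on its own. By cluster, Cd209a in EBI-like cells was at 76.1 and 195 CPM in the doublet-rich cluster led by Slfn14 and Tmcc2 and at 2.37 and 10.0 CPM in the one led by Xpo7 and Tmcc2.

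The members thus divided over the lineages. With the classes summed into macrophages, monocytes and DCs, the library labelled wild-type had 1 of 10 members highest in macrophages (Clec4n), 7 in monocytes (Clec4e, Clec7a, Clec4a2, Clec12a, Clec4a1, Clec4a3 and Clec10a) and 2 in DCs (Clec4a4 and Cd209a). Of the 12405 genes that reached 100 UMIs over these lineages, 28.5% were highest in macrophages, 28.2% in monocytes and 43.3% in DCs. In the library labelled SCD 2 members were highest in macrophages, Clec4a2 having joined Clec4n, with 6 in monocytes and 2 in DCs, against 33.5%, 27.5% and 39% of all genes. Clec4a2 was the member whose group differed by library. For wild-type it was at 176 (167 to 185) CPM in the summed monocytes and 149 (146 to 152) CPM in the summed macrophages. Its levels in the single classes of Ly6c-high monocyte-like and RPM-like cells did not differ beyond counting error there. The summed macrophages held 6938 EBI-like and 4697 RPM-like cells for wild-type, but 1012 and 1643 for SCD. For wild-type, RPM-like cells alone had 184 CPM of Clec4a2 and 333 CPM of Clec12a, against 176 and 330 CPM in the summed monocytes. The counts of members by lineage therefore depend on how classes were summed. With scran-normalized counts 2 members were highest in macrophages in each library. The Lyz1/Cd93 cluster belongs to none of these groups.

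Between the libraries a 2-fold difference was counted for members and genes with at least 100 UMIs in a class, and medians were taken over all members with a ratio. Members that had fewer UMIs are named in each case, since a gene can pass this minimum through 1 library. In RPM-like cells 8 members passed, without Clec4e and Clec4a4. Cd209a was higher and Clec7a lower in the library labelled SCD by 2-fold or more, against 9.16% and 4.24% of 9978 genes. Cd209a, with 28 and 143 UMIs, passed through the library labelled SCD alone and had no ratio left after subtraction of the B reference, so that nothing is read from it. In EBI-like cells 9 passed, without Clec4a4. Cd209a was higher and Clec4e and Clec7a lower, against 3.05% and 5.4% of 11041 genes. Of these, Clec4e passed through the library labelled wild-type alone and lost the 2-fold difference without doublets, and Cd209a changed direction with separate clustering, which left Clec7a.

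In Ly6c-high monocyte-like cells 9 members passed, without Clec4a4. Cd209a was higher and Clec4n lower, against 2.59% and 5.19% of 8542 genes. Here too Cd209a, with 66 and 312 UMIs, passed through the library labelled SCD alone. Its ratio lay from 1.40 to 2.82 over the alternatives. In Ly6c-low monocyte-like cells 9 passed, again without Clec4a4, and Cd209a was higher and Clec4n and Clec4e lower, against 2.71% and 1.87% of 7576 genes. Cd209a, with 4 and 130 UMIs, again passed through 1 library and had no ratio left after subtraction. In cDC2-like cells 9 passed, without Clec4e, and 0 differed by 2-fold in either direction, against 1.92% and 2.79% of 9715 genes. This count holds for the clustering used, since Clec4n was past 2-fold lower under each of the 6 other clusterings. In mature DC-like cells 7 passed, without Clec4e, Clec4a4 and Clec10a, and Cd209a was higher and Clec4n and Clec12a lower, against 1.91% and 5% of 6481 genes. Of these, Cd209a, with 40 and 145 UMIs, passed through the library labelled SCD alone, and its ratio fell to 0.48 among the alternatives.

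**Figure D4:**
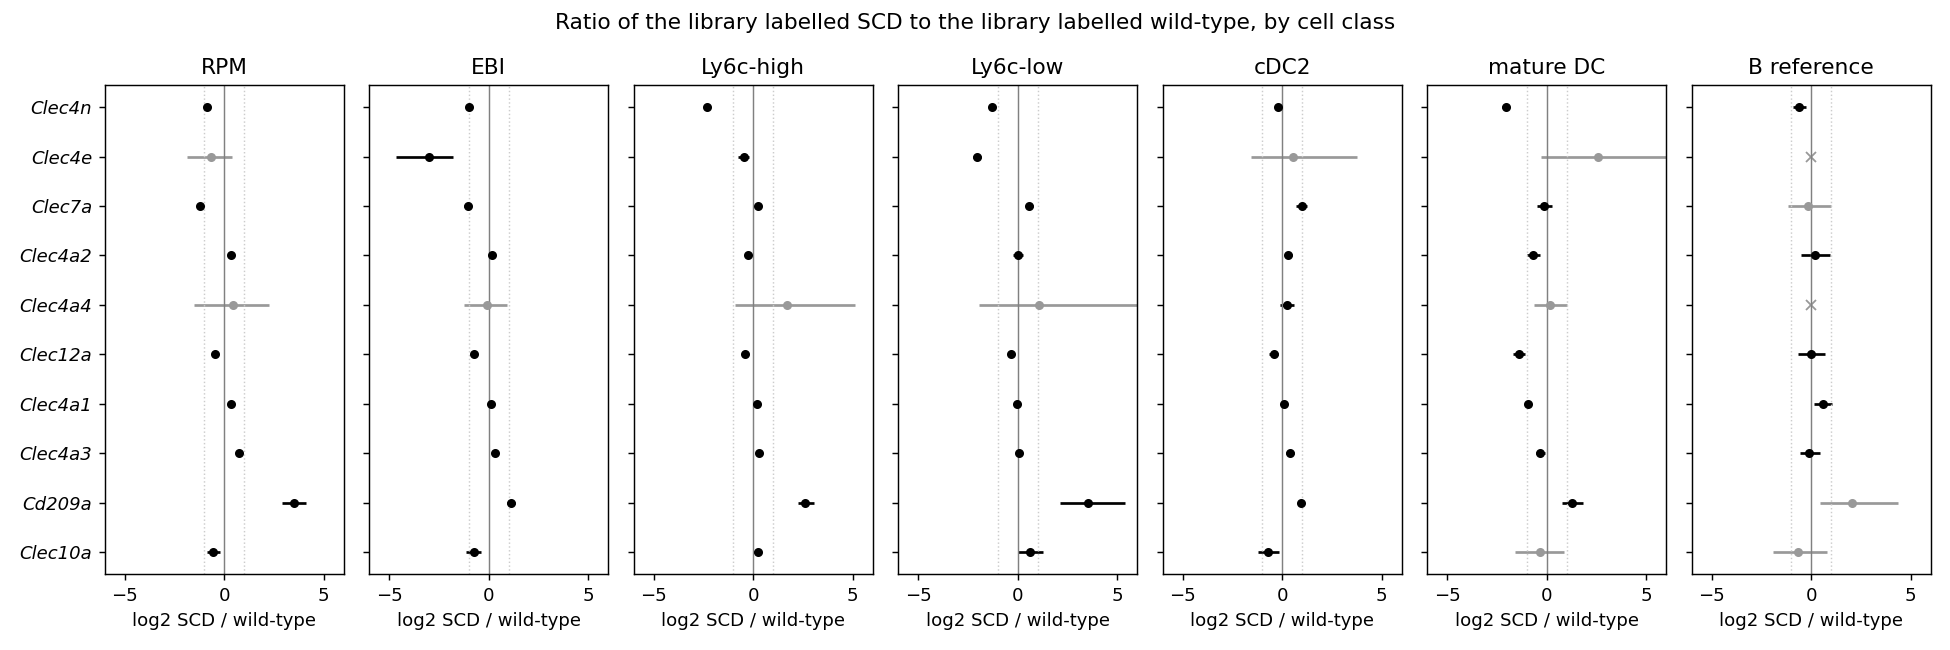
Log2 ratio of the library labelled SCD to the library labelled wild-type for each member in 6 classes and the main B lymphocyte-like cluster, with 95% counting intervals cut at 6 on either side. Dotted lines mark a 2-fold difference, grey points fewer than 100 UMIs, and crosses at 0 a count too low for a ratio, or 0 in 1 library. Clec4n lies left of 0 and Cd209a right of 0 in every panel.

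The median log2 ratio over the members was -0.08 in RPM-like, -0.40 in EBI-like, 0.21 in Ly6c-high monocyte-like, 0.05 in Ly6c-low monocyte-like, 0.28 in cDC2-like and -0.33 in mature DC-like cells. Over all genes tested it was 0.20, -0.06, 0.02, 0.09, 0.02 and -0.01 in the same order. The cDC2 median turned to between -0.59 and -0.22 under the 6 other clusterings. The members did not move as 1 group. In the clustering used, Clec4n was lower in the library labelled SCD in all 6 classes. In Ly6c-high monocyte-like cells it had the lowest ratio of the 10 members, at -2.31. The other members past the minimum there, Cd209a left out, lay from -0.48 (Clec4e) to 0.27 (Clec4a3). Cd209a was higher in all 6 classes. In RPM-like, mature DC-like and both monocyte classes it passed the minimum through the library labelled SCD alone, so that nothing is read from it there. The B reference lay the same way for Clec4n and Cd209a, with ratios of -0.61 and 2.05. With it subtracted, Cd209a had no ratio left in RPM-like and Ly6c-low monocyte-like cells, and Clec4n changed direction in cDC2-like cells. Cd209a changed direction in EBI-like cells with separate clustering.

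At equal depth, with each cell thinned to 1000 UMIs, the division was also seen in the share of cells with a UMI. Thinning left out 683 and 144 RPM-like cells and at most 253 and 66 cells of any other class. Clec4n was found in 69.7% (68.2 to 71.1%) and 44.9% (42.4 to 47.5%) of RPM-like cells, against 8.76% and 7.91% of cDC2-like cells and 6.84% and 4.89% of the B reference. Without thinning these were 85.4% and 78.9%, 29.3% and 26.4% and 19.3% and 14.98%, at median depths of 2116 and 4098, 3292 and 4716 and 2017 and 2894 UMIs. Clec4a1 was found in 58.5% (53.6 to 63.2%) and 60.1% (57.1 to 62.9%) of Ly6c-low monocyte-like cells and 5.90% and 6.12% of the B reference. Cd209a was found in 14.3% (11.8 to 17.0%) and 27.4% (25.7 to 29.2%) of cDC2-like cells, against 0.472% and 0.647% of the B reference.

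Clec4a1 and Clec4a3 were found together in 32.2% and 32.0% of thinned Ly6c-low monocyte-like cells, close to the product of their shares, 33.2% and 31.7%. Cd209a and Clec10a were found together in 7.69% and 9.51% of cells of the Lyz1/Cd93 cluster, above the product of 3.70% and 4.38%. Cd209a and Clec7a were found together in 13.8% and 15.6% of these cells, with products of 10.9% and 12.9%. At least 3 of the 10 members were found in 38.8% and 38.8% of cells of that cluster. The monocyte classes lay near it for wild-type, with 35.7% and 29.2% of Ly6c-high and 37.1% and 24.9% of Ly6c-low monocyte-like cells. The share was 23.7% and 20.4% in RPM-like cells, 4.18% and 6.79% in cDC2-like cells and 0.353% in the B reference in the library labelled SCD. In the library labelled wild-type it was 0 of 424 cells of the B reference, which allows a share of up to 0.708%.

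The genes most like each member were found from the correlation of log2(CPM + 1) over 19 combinations of class and library, which share 2 libraries, among 13015 genes. Pearson's r is given as a description. Clec4n was most like Timd4 (0.99), Igf1 (0.99) and Fcna (0.99), the first a receptor for phosphatidylserine of red pulp macrophages. Clec4e was most like Msrb1 (0.92), C5ar1 (0.90) and Ms4a4a (0.90), and Clec7a Dbi (0.94), Cebpa (0.93) and Msr1 (0.93). The genes nearest to Clec4a1 were Cyp4v3 (0.95), Cd300a (0.95) and Rnf149 (0.95), and those nearest to Clec4a3 were Ifi204 (0.96), Cebpb (0.95) and Cd300ld3 (0.94). Cebpa and Cebpb encode transcription factors of myeloid cells.

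The inhibitory members had different neighbours. Clec12a was most like Lamp2 (0.96), Aldh3b1 (0.96) and Ugp2 (0.94), Clec4a2 Dstn (0.88), Tmem170b (0.87) and Sort1 (0.87) and Clec4a4 Gpr4 (0.99), Foxr1 (0.97) and Six3 (0.96). Cd209a was most like Scn2b (0.90), Cdyl2 (0.87) and Kmo (0.87) and Clec10a Ifi27l2a (0.91), Tpd52 (0.91) and Ifi211 (0.91). Among the members themselves, Clec4a1 and Clec4a3 were the most alike, with r of 0.90, followed by Clec7a and Clec10a at 0.85 and Clec4a2 and Clec12a at 0.83. Clec4n and Cd209a were the least alike, at -0.47.

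The adaptors and kinases downstream were measured in the same cells. Of the list of 18 adaptor and signalling genes, 17 passed the minimum in RPM-like cells, with 1 higher by 2-fold or more in the library labelled SCD (Malt1) and 0 lower, against 9.16% and 4.24% of all genes, and a median log2 ratio of 0.41 beside 0.20 over all genes. In Ly6c-high monocyte-like cells 17 passed, with 1 higher (Prkcd) and 0 lower, and in EBI-like, Ly6c-low monocyte-like, cDC2-like and mature DC-like cells 0 of 18, 16, 17 and 15 differed by 2-fold. The shares of all genes in these classes are those given above. Fcer1g, the FcRγ adaptor of Dectin-2 and Mincle, had 1319.7 and 1312 CPM in RPM-like and 1607 and 1483 CPM in Ly6c-low monocyte-like cells. Tyrobp, the adaptor DAP12, was at 878 and 773 CPM and 1169 and 1089 CPM there. Unlike Clec4n, Fcer1g had a log2 ratio of -0.01 (-0.04 to 0.03) in RPM-like cells. Prkcd, the kinase PKCδ that acts on Card9, had a ratio of 1.02 (0.97 to 1.08) in Ly6c-high monocyte-like cells. The kinase Lyn and the NF-κB subunit Nfkb1 had ratios of 0.41 (0.36 to 0.45) and 0.64 (0.56 to 0.72) in RPM-like cells.

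Of the 10 output genes of Syk and Card9 signalling, 2 passed in RPM-like cells, and both were higher by 2-fold or more in the library labelled SCD, as were 9.16% of all genes. Il1b, the cytokine interleukin-1β, had 6.06 and 327 CPM there, with a log2 ratio of 5.75 (5.47 to 6.05), beside 0.960 and 26.6 CPM in the B reference. Tnf was at 3.06 and 7.91 CPM, below its B reference of 13.4 and 13.5 CPM. In EBI-like cells 5 passed, with Il1b higher and Cxcl2 and Il12b lower, in Ly6c-high monocyte-like cells 1 passed, Il1b, which was higher, and in Ly6c-low monocyte-like cells 3 passed, with Il1b higher and Cxcl2 lower. In EBI-like cells Cxcl2, with 151 and 0 UMIs, and Il12b, with 202 and 8, passed through the library labelled wild-type alone. So did Cxcl2 in Ly6c-low monocyte-like cells, with 144 and 78 UMIs. The chemokine gene Cxcl2 was at 76.0 and 14.4 CPM in Ly6c-low monocyte-like cells. In cDC2-like cells 0 of 3 differed by 2-fold. In mature DC-like cells 1 of 3 was lower, Il12b, which encodes the shared chain of interleukins 12 and 23, at 217 and 78.2 CPM. With 1 to 5 genes passing in a class, these counts are too small to be read against the shares of all genes given above. Egr3, a transcription factor gene, was at 15.5 and 9.31 CPM in cDC2-like cells and 184 and 154 CPM in the B reference.

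Of 29 other C-type lectin genes, 6 to 11 passed in a class. In RPM-like cells 2 of 9 were higher (Clec2d and Cd72) and 2 lower (Ly75 and Colec12) by 2-fold or more, in EBI-like cells 1 of 11 was lower (Colec12), in Ly6c-high monocyte-like cells 1 of 7 (Mrc1), in Ly6c-low monocyte-like cells 1 of 6 (Clec4d) and in mature DC-like cells 1 of 7 (Mrc1). In cDC2-like cells 1 of 9 was higher (Cd209b). Cd209b, with 7 and 177 UMIs, passed through the library labelled SCD alone. Ly75, Colec12 and Clec4d passed through the library labelled wild-type alone. The shares of all genes past 2-fold, given above by class, were from 1.91% to 9.16% higher and from 1.87% to 5.4% lower, and with 6 to 11 genes a class these counts are too small to be read against them. Mrc1, the mannose receptor, had 2132 and 2062 CPM in RPM-like cells, with a log2 ratio of -0.05 (-0.08 to -0.02), and 549.6 and 152 CPM in Ly6c-high monocyte-like cells. Clec2d was at 332 and 684 CPM, Cd302 at 254 and 326 CPM, Clec2i at 45.7 and 26.0 CPM and Clec4b1 at 32.5 and 31.4 CPM in RPM-like cells. Clec4d, the FcRγ-coupled partner of Mincle and its neighbour on chromosome 6, was at 77.6 and 12.8 CPM in Ly6c-low monocyte-like cells, a ratio of -2.60 (-3.04 to -2.18), beside the ratio of -2.05 of Clec4e.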

How the data were processed

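The 2 libraries of F4/80-enriched spleen cells, 1 mouse per condition, were compared by the groups of their labels. The authors aligned the reads, assigned barcodes, separated cells from droplets without cells and deposited counts of UMIs, not normalized, for each gene and barcode on GRCm38.p6. The submitters' processing notes name Cell Ranger 4.0.0, and the matrix headers give 3.1.0.

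A cell was kept if it had 500 to 5000 genes and if mitochondrial genes took under 15%, and ribosomal protein genes under 30%, of its UMIs. Counts were scaled by size factors of scran 1.30.0 (R 4.3.3). From the 2000 most variable genes, C-type lectin, globin and sex-linked genes left out, 30 principal components were taken. Leiden clustering of their graph (15 neighbours, resolution 1) used scanpy 1.11.5 and python-igraph 0.11.9. Clusters were named from marker lists by limits set after a first clustering was seen. For RPM-like, the median macrophage marker had to reach 4 times that of the main B lymphocyte-like cluster, and for EBI-like the median erythroid marker 2 times as well. Other classes needed at least 3 markers, and more than 50% of their list, at 2 times the remaining cells or more and found in 10% of cells. A cluster stayed unnamed where markers of another class were as many among its 10 leading genes. Scrublet marked doublets, which stayed in. By its own threshold it marked 1712 SCD cells (13.9%) and 0 wild-type cells, for which the 10% with the highest scores were marked instead.

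Counts were summed by class and library and scaled to CPM, and 3 counts were used as the limit where none was seen. The calculation was tested on simulated counts. Intervals cover counting error only. The named genes were the 10 members, the 3 genes most like each, the 5 genes of each pathway list with the most UMIs in macrophage-, monocyte- and DC-like cells, 3 globin genes, class markers and leading genes of clusters. Clec4d and the genes past 2-fold in the pathway lists were named after their values were seen. The members and lists were chosen with earlier results of these data known. Alternatives for cell filters, doublets, clustering, normalization, totals, free RNA, UMI minimum, fold and thinning were run.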

Additional observations from a re-analysis of the deposited data

Results flagged for a closer look

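Clec7a and Clec10a differed between the libraries in opposite directions in different classes, by 1.5-fold or more with counting intervals on 1 side of 0, and the difference between the classes was not tested. The log2 ratio of Clec7a, SCD over wild-type, was -1.22 in RPM-like and -1.06 in EBI-like cells, against 0.59 in Ly6c-low monocyte-like and 0.99 in cDC2-like cells. Over the alternatives it ranged from -1.61 to -0.97 in RPM-like, from -1.60 to -0.92 in EBI-like, from 0.25 to 0.88 in Ly6c-low monocyte-like and from 0.03 to 1.40 in cDC2-like cells, where it was under 1.5-fold under each of the 6 other clusterings, at 0.03 with doublets left out. The log2 ratio of Clec10a was -0.76 in EBI-like cells, with a range of -1.06 to -0.31, and -0.71 in cDC2-like cells, with a range of -1.61 to -0.12. Against these, it was 0.61 (0.01 to 1.26) in Ly6c-low monocyte-like cells, where it rested on 28 and 122 UMIs and ranged from -0.33 to 1.24. The B reference had a ratio of -0.65 (-1.90 to 0.80) from 7 and 25 UMIs. Its 6.72 and 4.27 CPM lay near the 12.6 and 7.74 CPM of cDC2-like cells.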

How the results depend on the processing

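Each condition had 1 library, so no replicate could be left out, and no paired analysis was possible because the groups share 1 replicate number. Of 16 ratios of single members past 2-fold, 3 of them from fewer than 100 UMIs, 173 of 174 values under the alternatives kept the direction and 154 stayed past 2-fold. The exception in direction was Cd209a in EBI-like cells, at -0.64 with each library clustered on its own. The number of members highest in macrophages in the library labelled wild-type was 2 in place of 1 with scran-normalized counts, and the number highest in DCs was 2 in each library under every alternative. The monocytes had 6 or 7 (wild-type) and 5 or 6 (SCD), and the macrophages 2 or 3 for SCD. The median over the members moved most in cDC2-like cells, to -0.28 at resolution 0.5, -0.59 at resolution 2, -0.22 with cells of at least 200 genes, -0.52 without doublets, -0.31 with all variable genes and -0.27 with each library clustered on its own. In RPM-like cells it was 0.26 at resolution 0.5, 0.028 with cells of at least 200 genes, -0.19 without doublets, 0.18 with separate clustering, -0.27 with scran-normalized counts and -0.51 with the B reference subtracted. In Ly6c-low monocyte-like cells it was -0.14 at resolution 0.5, and without doublets it was 0.077 in Ly6c-high monocyte-like and -1.09 in mature DC-like cells. The causes were not tested. At 1.5-fold in place of 2-fold, 2 members were higher and 2 lower in RPM-like cells, 5 lower in EBI-like cells, 3 higher in Ly6c-low monocyte-like cells, 2 higher and 1 lower in cDC2-like cells and 4 lower in mature DC-like cells. No share of all genes past 1.5-fold stands beside these counts, so that nothing is read from them. Leaving out clusters of over 30% doublets was chosen after seeing the data. Where the B reference was as high as a class, subtraction left no ratio. With 1 mouse per condition, differences between mice and between conditions cannot be told apart.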

Other observations

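The neutrophil-like cluster was in no comparison between the libraries. In its 279 cells of the library labelled wild-type Clec4n was at 240.2 CPM, Clec7a at 90.0 CPM, Clec4a1 at 119 CPM and Clec4a3 at 75.4 CPM. An unnamed cluster led by Ifitm1 and Ffar2, with 1026 and 27 cells, had 6 of the 12 cDC2 markers past the limit. In its cells of the library labelled wild-type Clec4n was at 626 CPM, Cd209a at 147 CPM and Clec4a4 at 14.8 CPM. An unnamed cluster led by Mpo and Elane, 185 cells of that library, had 348 CPM of Clec7a and 297 CPM of Clec12a, and 0 UMIs of Clec4a4.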
